A study of Homo sapiens with 4 samples.

Results

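A library from RNase-treated mitoplasts of young WI-38 cells was compared with a library from whole cells. WI-38 is an established line of human lung fibroblasts of fetal origin with a limited number of divisions. Both libraries came from cells at population doubling level (PDL) 21, and the series holds another such pair from senescent cells at PDL 60, so that the 2 young libraries were 2 of 4 in all. All cells were unmodified and grown in the same medium with serum, and 1 library stood for each group. The members were the 6444 nuclear-encoded genes, of 19002 with a coding transcript in the files, whose coding transcripts summed to 5 FPKM or more in at least 1 of the 2 libraries. FPKM is a fragment density, scaled for transcript length and for the number of mapped fragments. Noncoding transcripts were summed apart, which kept 1479 of 31181 nuclear-encoded noncoding genes and the noncoding transcripts of 3169 coding genes.

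A mitoplast is a mitochondrion without its outer membrane. The labels describe lysis with the detergent CHAPS, removal of nuclei at low speed, swelling of crude mitochondria in hypotonic buffer, and digestion with RNase A before and after the mitoplasts were pelleted. The mitochondrial genome encodes a small set of proteins of the respiratory chain and ATP synthase, with the rRNAs and tRNAs that translate them. The remaining mitochondrial proteins are encoded in the nucleus, made on cytosolic ribosomes and imported, many of them by way of a positively charged N-terminal presequence, and some of their mRNAs are translated at the mitochondrial surface. Secreted and membrane proteins take another route: a hydrophobic signal near the N terminus directs their ribosomes to the endoplasmic reticulum (ER). The comparison therefore asked which RNAs accompanied the mitochondrial interior, and how nuclear-encoded mRNAs were placed relative to one another by the destination of their proteins.

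For each gene the ratio was log2((mitoplast + 1)/(whole cells + 1)), a scale on which differences of weakly expressed genes come out too small. The median nuclear-encoded coding gene had a ratio of −0.52, or 0.696 times its whole-cell value. Relative ratios below are centred on that gene, and "higher" and "lower" mean a relative ratio of 1 or more, or −1 or less, which is 2-fold. With 1 library a group there is no replicate check and no test, and a difference between the libraries cannot be told apart from a difference between the fractions. Because FPKM is scaled to the mapped fragments of each library, neither the number of mitoplasts nor the RNA per mitoplast can be read from it. The depth of the libraries is unknown. A value of exactly 0 may stand for an estimate that failed, and 5.32% of the 1184 genes with 50 FPKM or more in whole cells were listed at 0 in the mitoplast library. The larger of a gene's 2 values was just above the limit for SDAD1 (5.005 FPKM) and ZC3HAV1L (5.006 FPKM) and just below it for MRPS28 (4.993 FPKM) and ELN (4.988 FPKM).

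The libraries matched their labelled cell type. Fibroblast markers summed to 8180 FPKM in whole cells and 6171 FPKM in the mitoplast library, although PDGFRB was listed at 0 in both. VIM alone gave 3263 and 4312 FPKM of these sums, and 2 of the 10 markers were at 0 in mitoplasts. Epithelial markers summed to 23.2 and 23.1 FPKM, endothelial markers to 30.6 and 8.71 FPKM and blood and immune markers to 1.18 and 0.998 FPKM, with KRT5, CDH5 and PTPRC at 0 in both. Most of the epithelial sums came from KRT18 (13.96 and 12.55 FPKM) and KRT19 (5.21 and 8.3 FPKM). Most of the endothelial sums came from TEK (28.8 and 7.95 FPKM). Assembled transcripts without an Ensembl name held 53.7% of the summed FPKM in whole cells and 92.7% in the mitoplast library. Their part in the differences below was examined only by adding those of loci with a single gene and by leaving out loci with an assembled transcript and several genes.

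All 13 mRNAs encoded by mitochondrial DNA were higher in the mitoplast library, with relative ratios of 2.12 to 2.87 and a median of 2.41. They made up 32.7% of coding FPKM in whole cells and 68.2% in mitoplasts. MT-ATP8 and MT-ND4L, annotated at 207 and 297 nt, had the largest values of the 13. FPKM measures entries this short poorly, so these shares are uncertain. MT-CO1, a catalytic subunit of cytochrome c oxidase, stood at 8540 FPKM in whole cells and 34115 FPKM in the mitoplast library, a relative ratio of 2.52. The extremes of the relative ratio were MT-ND4, a subunit of complex I, at 5876 and 29954 FPKM, and MT-ATP8, a subunit of ATP synthase, at 75779 and 228300 FPKM. The 13 mRNAs thus stayed within a narrow band. MT-ND6, which is encoded on the other strand than the rest, stood at 11712 and 41029 FPKM with a relative ratio of 2.33, inside that band. The strand setting of the libraries is unknown, so the MT-ND6 values can hold reads of RNA from the opposite strand. The ribosomal RNAs of the mitochondrion lay higher: MT-RNR1 (12S) stood at 1853 and 15943 FPKM with a relative ratio of 3.63, and MT-RNR2 (16S) at 4367 and 25273 FPKM with 3.06. Of the 11 mitochondrial tRNA genes kept, 3 were higher, 7 were lower and all 7 of those were listed at 0 in mitoplasts. Transcripts this short (median 69 nt) are measured poorly by FPKM: MT-TC stood at 528.5 and 5316 FPKM while MT-TE stood at 210.1 FPKM and 0.

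Among the nuclear-encoded genes, 1650 were higher in mitoplasts (25.6% of the 6444) and 1924 were lower (29.9%). These shares are the background for every count of coding genes below. Noncoding genes have another background, with 30.4% higher and 56.2% lower. For noncoding transcripts of coding genes it is 34.8% and 40.8%. Without centring, 1003 were higher and 2519 lower, and with equal sums over nuclear-encoded genes 858 and 2755, because the median gene itself then stands at −0.52 or at −0.70. These scalings move all genes almost alike, so they cannot change the order of the 4 large groups below and are no check of it. Directions hold relative to the median gene only. Hand-made lists gave 1621 genes a destination, of which 1216 were kept. Genes for cytosolic proteins had the highest median (0.90, 317 genes), followed by those for mitochondrial proteins (0.81, 307 genes) and nuclear proteins (0.23, 353 genes). Genes of the secretory pathway had the lowest median of the 4 large groups (−1.05, 223 genes), and the 5228 genes in no list had −0.11. As shares of the coding FPKM of all nuclear-encoded genes, secretory genes went from 8.07% in whole cells to 3.21% in mitoplasts, mitochondrial genes from 3.32% to 4.96% and cytosolic genes from 24.1% to 39.2%.

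**Figure D1:**
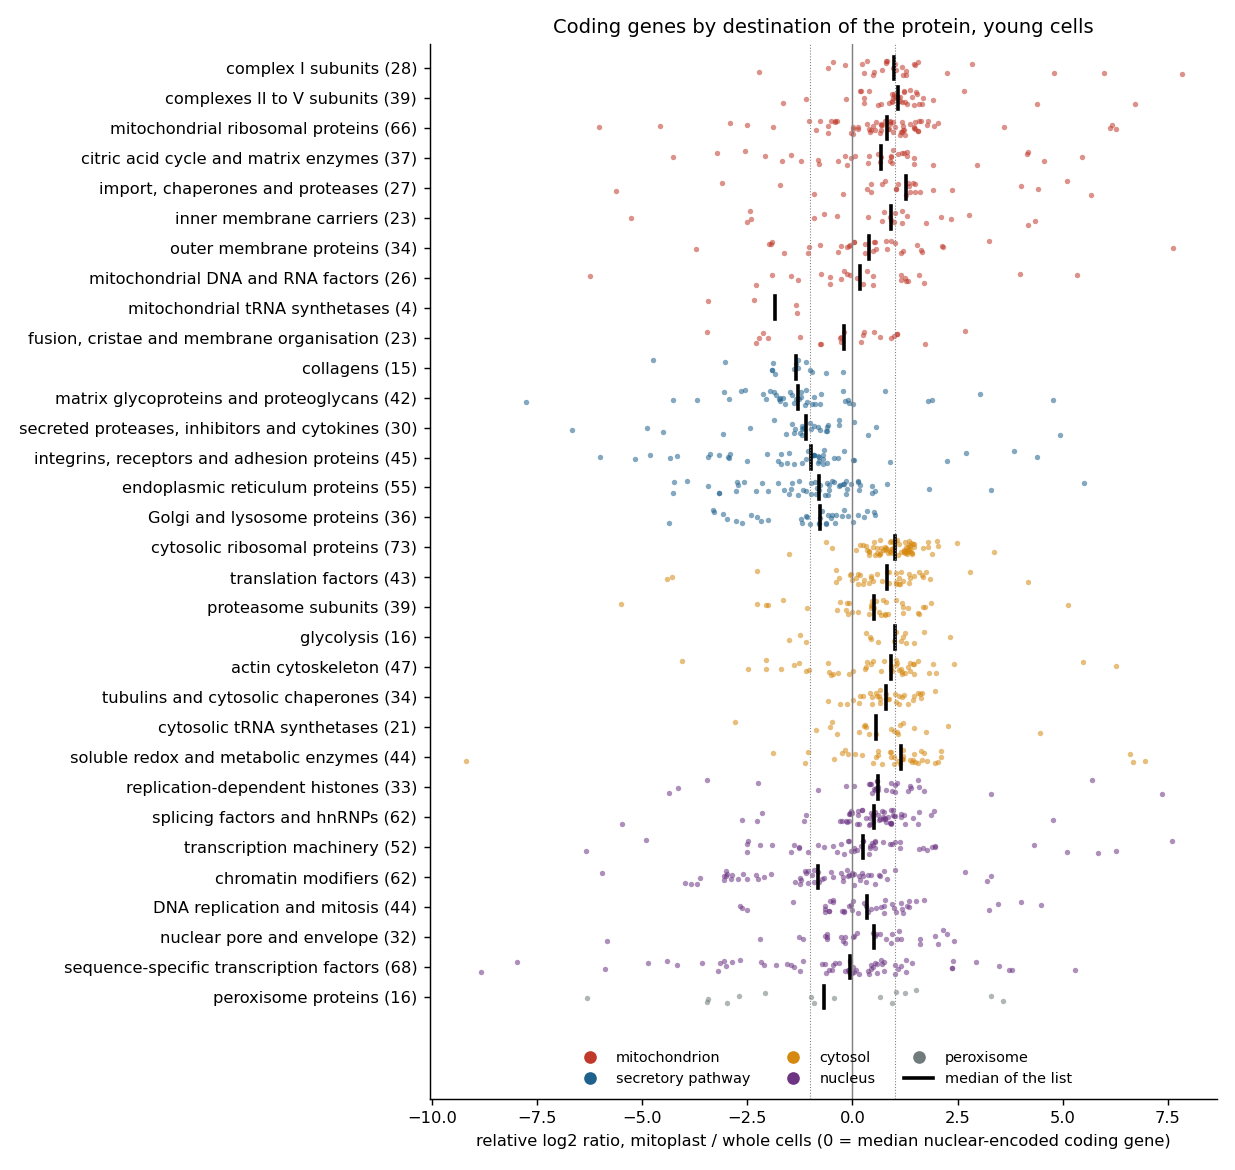
Relative log2 ratio (mitoplast over whole cells, x axis) of each gene kept in the 32 destination lists, 1 point a gene, coloured by destination, with the number kept in brackets and a black bar at the list's median. Dotted lines mark 2-fold. The medians of the 6 secretory lists lie between −1.34 and −0.77, and those of the 8 cytosolic lists between 0.52 and 1.15.

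The mRNAs of secreted and membrane proteins were the low group. Of its 223 genes, 115 were lower, against a background of 29.9%, and 12 were higher, against 25.6%. Every one of the 6 lists had a negative median: collagens −1.34, matrix glycoproteins and proteoglycans −1.31, secreted proteases, inhibitors and cytokines −1.10, integrins, receptors and adhesion proteins −0.98, ER proteins −0.81 and Golgi and lysosome proteins −0.77. None of the 15 collagens kept was higher and 12 were lower. The sequences that follow show the signal these mRNAs encode. They are the first 25 codons of 3 of the 4 secretory genes with the highest mean FPKM among those with an N-terminal hydrophobic stretch, as defined below, in a complete coding transcript of 600 nt or more. TIMP1 and P4HB, more abundant, did not meet that definition in their leading complete transcript. Other transcripts of these genes were not examined, so this does not mean that their proteins lack such a stretch. Capitals mark the 11 codons of the most hydrophobic window.
FN1: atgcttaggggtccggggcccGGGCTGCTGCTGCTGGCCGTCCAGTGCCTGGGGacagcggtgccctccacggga
DCN: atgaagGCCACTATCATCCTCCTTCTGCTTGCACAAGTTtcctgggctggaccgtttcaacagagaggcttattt
COL6A2: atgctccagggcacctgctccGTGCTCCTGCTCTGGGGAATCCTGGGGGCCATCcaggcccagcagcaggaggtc

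The stretches are coding sequence from GENCODE 29 on GRCh38, at chr2:215435728-215435802 (minus strand) for FN1, chr12:91178478-91178552 (minus strand) for DCN and chr21:46111477-46111551 (plus strand) for COL6A2. The mean Kyte-Doolittle hydropathy of the capital window was 2.11, 2.53 and 2.59 in that order. COL1A1, the main chain of type I collagen, stood at 1501 FPKM in whole cells and at 424 FPKM in the mitoplast library, which is 2.46-fold lower relative to the median gene. COL6A2 and COL6A1, chains of the type VI collagen of the pericellular matrix, stood at 946.5 and 181.8 FPKM and at 782.1 and 143.5 FPKM, with relative ratios of −1.85 and −1.91. FN1, fibronectin, was at 1052 and 220.8 FPKM (−1.72), and TGFBI, a matrix protein induced by TGF-beta, at 394.8 and 74.8 FPKM (−1.86). These matrix mRNAs all lay below the median gene. DCN, the small proteoglycan decorin, was at 895.2 and 294.9 FPKM (−1.07), with 12.1% of its summed value over both libraries in transcripts of 600 nt or more.

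Other secretory members followed with smaller and larger distances. TIMP1, an inhibitor of matrix metalloproteinases, was at 2171 and 669.8 FPKM (−1.17), GREM1, a secreted antagonist of bone morphogenetic proteins, at 348.9 and 91.8 FPKM (−1.39), and FGF7, a fibroblast growth factor, at 781.1 and 98.95 FPKM (−2.45), the last almost wholly in transcripts under 600 nt. The integrin subunit ITGB1 was at 398.4 and 133.1 FPKM (−1.05) and the tetraspanin CD63 at 633.4 and 222.2 FPKM (−0.98). CD44, the hyaluronan receptor, stood at 3199 and 652.5 FPKM (−1.77), with 3.38% of its value in transcripts of 600 nt or more. Inside the ER, P4HB, protein disulfide isomerase, was at 1515 and 532.9 FPKM (−0.98) and the calcium pump ATP2A2 at 648.8 and 182.2 FPKM (−1.303). Transcripts of 600 nt or more held 20.7% of the P4HB value and 7.06% of the ATP2A2 value. OST4, a very small subunit of oligosaccharyltransferase, was one of the 12 exceptions, at 234.9 and 573.8 FPKM (1.81). The lysosomal proteases CTSD and CTSB had relative ratios of −0.50 and −1.02, and TMEM165, a Golgi membrane protein, was at 151.4 and 9.82 FPKM (−3.29). Of the members named here for their abundance, 3 a list, OST4 alone lay above the median gene.

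**Figure D2:**
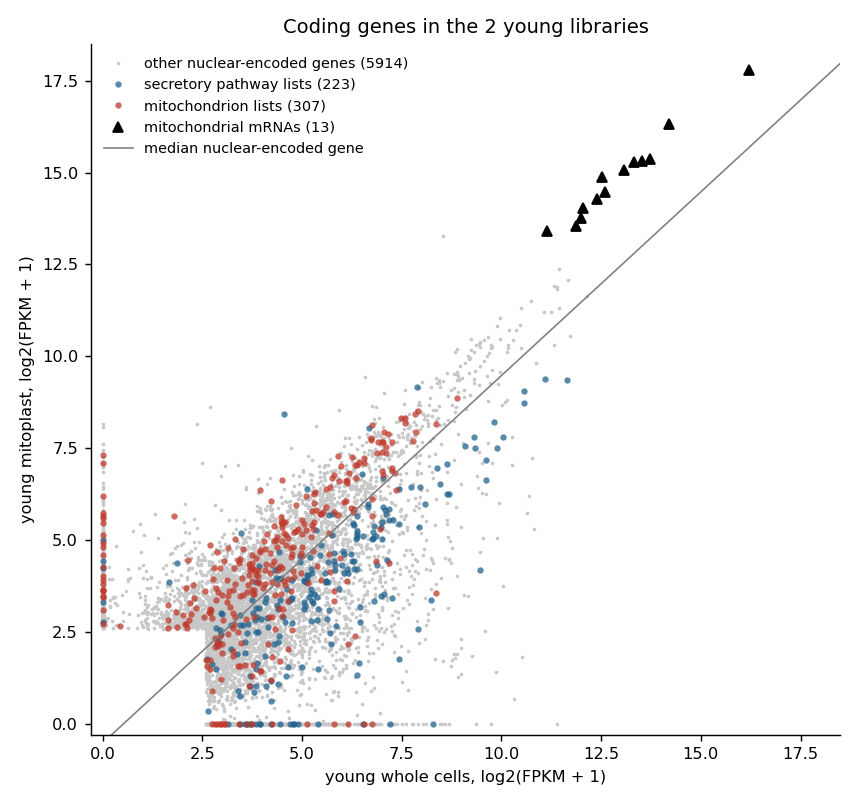
Coding genes as log2(FPKM + 1) in young whole cells (x axis) and the young mitoplast library (y axis), 1 point a gene; points on an axis are listed at 0 in a library. The grey line is the median nuclear-encoded gene, the 13 mitochondrial mRNAs (triangles) lie above it, 115 of 223 secretory genes lie 2-fold or more below it and 125 of 307 mitochondrial genes 2-fold or more above it.

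Nuclear-encoded mRNAs of mitochondrial proteins were above the median gene in most lists, but not in all. Of the 307 genes, 125 were higher, against a background of 25.6%, and 45 were lower, against 29.9%. The first 25 codons of the 4 mitochondrial genes with the highest mean FPKM and a presequence-like start, chosen in the same way, are given for comparison with the ER signals above. Their relative ratios were −4.27 for PCCA, 0.40 for ATP5PF, 0.28 for COX4I1 and 0.87 for COX5B, so none of them was higher. Capitals mark codons for arginine and lysine, and none of these starts has a codon for aspartate or glutamate among residues 2 to 20.
PCCA: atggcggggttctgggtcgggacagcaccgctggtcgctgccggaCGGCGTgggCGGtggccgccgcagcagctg
ATP5PF: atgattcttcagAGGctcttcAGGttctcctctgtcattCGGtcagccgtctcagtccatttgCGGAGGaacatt
COX4I1: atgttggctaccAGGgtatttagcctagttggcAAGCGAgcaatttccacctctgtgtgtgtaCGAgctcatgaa
COX5B: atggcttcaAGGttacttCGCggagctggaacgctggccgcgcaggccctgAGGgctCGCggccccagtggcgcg

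On GRCh38 these lie at chr13:100089121-100089195 (plus strand) for PCCA, chr21:25729720-25729794 (minus strand) for ATP5PF, chr16:85801206-85804938 (plus strand, with an intron inside the stretch) for COX4I1 and chr2:97646087-97646161 (plus strand) for COX5B. Codons with T in their second position, which encode hydrophobic residues, made up 36% to 44% of these secretory starts and 20% to 48% of the mitochondrial ones, so that the 2 sets overlap on that measure. The highest medians were those of import factors, chaperones and proteases (1.27, 17 of 27 higher), subunits of complexes II to V (1.07, 22 of 39), complex I subunits (0.99, 14 of 28) and carriers of the inner membrane (0.91, 10 of 23). ATP5ME, a membrane subunit of ATP synthase, had 177.2 FPKM in whole cells and 318.2 FPKM in the mitoplast library, 2.58-fold higher relative to the median gene. HSPD1, the matrix chaperonin HSP60, was at 39.4 and 77.7 FPKM (1.49), while its partner HSPE1 was at 219.1 and 205.6 FPKM (0.43). Among carriers, SLC25A3, which imports phosphate, stood at 118.1 and 203 FPKM (1.30).

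The median of mitochondrial ribosomal proteins was 0.82, 26 of 66 being higher and 6 lower, and enzymes of the citric acid cycle and matrix 0.68 with 13 of 37 higher and 7 lower. MRPL19 was at 227.1 and 346.5 FPKM (1.13) and MRPL52 at 160.9 and 113.1 FPKM (0.02), so the list was not uniform. Transcripts of 600 nt or more held 12.2% of the MRPL19 value and 7.45% of the MRPL52 value. CS, citrate synthase, stood at 14.4 and 82.01 FPKM (2.95). PCCA, a subunit of propionyl-CoA carboxylase whose start is printed above, stood at 328.5 and 10.9 FPKM (−4.27), far below the group, with 10.4% of its value in transcripts of 600 nt or more. Proteins of the outer membrane, which as a rule lack a presequence, had a median of 0.40: VDAC1, the main outer membrane channel, was at 127.5 and 167.8 FPKM (0.92) and the apoptosis regulator BAX at 107.1 and 68.1 FPKM (−0.12). Factors for mitochondrial DNA and RNA stood at 0.17, and proteins of fusion, cristae and membrane organisation at −0.20. The 4 mitochondrial tRNA synthetases kept, of 17 in the list, were all lower; FARS2 stood at 79.2 and 4.195 FPKM. The mitochondrial group thus ran from import factors at the top to tRNA synthetases at the bottom.

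Genes for cytosolic proteins had a median of 0.90, beside 0.81 for mitochondrial proteins. Of their 317, 142 were higher and 27 lower. All 8 lists had positive medians, from 0.52 for proteasome subunits to 1.15 for soluble redox and metabolic enzymes. The 73 cytosolic ribosomal protein genes kept had 1.02 as their median, 37 being higher and 1 lower: RPL28 was at 1709 and 2890 FPKM (1.28) and RACK1 at 2160 and 2351 FPKM (0.65). The elongation factor EEF2 stood at 2530 and 3837 FPKM (1.12), with 9.64% of its value in transcripts of 600 nt or more. GAPDH, an enzyme of glycolysis, was at 953.3 and 1818 FPKM (1.45), a larger relative ratio than that of HSPE1 or VDAC1. Vimentin (VIM), the intermediate filament of fibroblasts, was at 3263 and 4312 FPKM (0.93), and the actins ACTG1 and ACTB at 2766 and 5308 FPKM (1.46) and at 4530 and 3176 FPKM (0.01). Cytosolic tRNA synthetases had a median of 0.56 with 8 of 21 higher, where the mitochondrial ones had −1.85.

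Genes for nuclear proteins spread around the median gene, with 79 of 353 higher and 78 lower. Replication-dependent histones, whose mRNAs lack a poly(A) tail, had a median of 0.60 over 33 genes, and H4C11 stood at 248.1 and 257.6 FPKM (0.58). Splicing factors and hnRNPs had a median of 0.51 with 45 of 62 genes within 2-fold of the median gene. Nuclear pore and envelope proteins had 0.51, DNA replication and mitosis 0.34, the transcription machinery 0.24 and sequence-specific transcription factors −0.06. Chromatin modifiers stood lowest at −0.82, with 27 of 62 lower and 4 higher: the methyltransferase gene KMT2A was at 245.9 and 70.9 FPKM (−1.26) and KMT2E at 153.4 and 11.99 FPKM (−3.05), while SMARCA4, the ATPase of a remodelling complex, was at 34.4 and 156 FPKM (2.67). Transcripts of 600 nt or more held 2.74% of the KMT2A value. The 16 peroxisomal genes kept had a median of −0.68, which was 0.66 over those above 0 in both libraries, so no direction is given for them.

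A measure that does not rest on hand-made lists was also used. The reading frames of 6132 genes, translated from the complete coding transcript with the most FPKM, were sorted by their sequence alone. A total of 884 had an N-terminal hydrophobic stretch, defined as a mean hydropathy of 2 or more in a window of 11 residues starting within the first 30. Their median was −0.76, with 371 lower and 124 higher. A further 476 without it had a membrane segment after residue 40, and their median was −0.76 too, with 208 lower and 59 higher. Presequence-like starts, with 3 or more arginines or lysines and no acidic residue between residues 2 and 20, numbered 435 with a median of 0.49, 143 higher and 89 lower. The 4337 frames with none of these had 0.21. The stretch was present in 78.1% of the secretory genes and 9% of the mitochondrial ones. The presequence-like start was present in 31.3% of the mitochondrial genes and 1.86% of the secretory ones. It was also present in 12.01% of the cytosolic genes and 7.331% of the nuclear ones, so it did not mark mitochondrial genes alone. Among genes in no destination list the medians were −0.73 for the N-terminal stretch (672 genes), −0.83 for internal membrane segments (411), 0.38 for presequence-like starts (275) and 0.12 for the rest (3595).

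Transcript length hardly ordered the coding genes as a whole: Spearman's rho between the relative ratio and the FPKM-weighted length was −0.04 across the 6444 genes, which share libraries and are not independent. By length, medians ran from 0.19 under 600 nt to −0.33 at 4000 nt or more, and secretory genes stayed between −1.25 and −0.85 in all 5 length classes. Within other destinations the medians fell with length: from the shortest to the longest class they were 1.14, 0.87, 0.67, 0.57 and −0.11 for mitochondrial genes and 0.63, 0.41, 0.30, 0.23 and −0.07 for nuclear genes. Cytosolic genes had 0.76 to 0.95 in the 4 classes under 4000 nt and 0.22 at 4000 nt or more. The genomic span of the gene, introns included, ordered the coding genes as a whole more. Genes under 5 kb had a median of 0.72 (481 genes), those of 5 to under 20 kb 0.46, of 20 to under 50 kb −0.01, of 50 to under 100 kb −0.37, of 100 to under 200 kb −0.82 and of 200 kb or more −0.83 (571 genes). Genes whose leading transcript has 1 exon had 0.66 (102 genes), against −0.02 for the other 6342. Mitochondrial genes followed the span, from 1.17 under 5 kb to −0.80 at 100 to under 200 kb, and the 11 of 200 kb or more had 0.50. Secretory genes did not: their medians were −0.88, −1.06, −0.83, −1.21, −1.44 and −1.09 in the same order. Cytosolic genes had medians of 0.64 to 0.98 below 100 kb, −0.84 at 100 to under 200 kb (14 genes, 7 of them lower) and −0.07 over the 5 genes of 200 kb or more. Nuclear genes had 0.60, 0.71, 0.12, −0.15, −1.002 and −0.60 from the shortest to the longest span. What the span stands for was not tested.

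**Figure D3:**
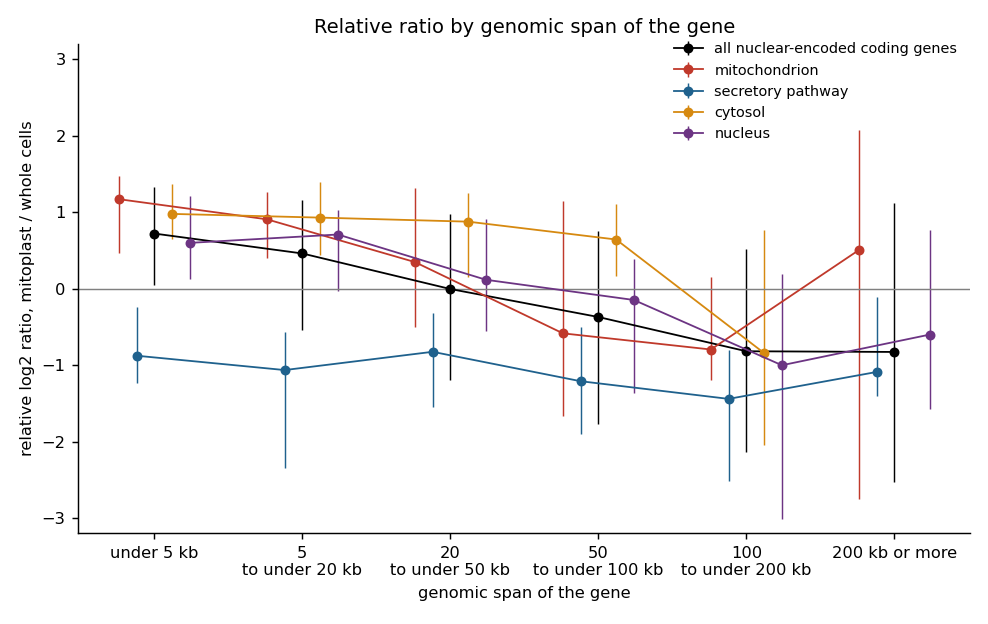
Median relative log2 ratio (y axis; bars are the lower and upper quartiles over genes, not an error) by genomic span of the gene (x axis) for all nuclear-encoded coding genes and for 4 destinations, where a class held at least 10 genes. The median over all genes falls from 0.72 to −0.83 with span, and the secretory genes lie between −1.44 and −0.83 in every class.

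The 10 lowest coding genes, among those at 20 FPKM or more in 1 library, above 0 in both and mostly in transcripts of 600 nt or more, all spanned 179 kb or more. PRKG1, a cGMP-dependent protein kinase gene of 1307 kb, stood at 1283 FPKM in whole cells and at 0.603 FPKM in the mitoplast library. CTIF (324 kb), a factor of cap-dependent translation, was at 501.4 and 3.19 FPKM, the phospholipase gene PLCB1 (891 kb) at 370.8 and 2.24 FPKM, and CRIM1 (195 kb), a membrane protein with a secretory signal, at 509.3 and 3.92 FPKM. DAB2IP, PTPRG, UBE2E2, FOXP2, RBMS3 and DCLK2 followed, with relative ratios of −5.30 to −4.62. Mitoplast values of all 10 were 7.89 FPKM or less.

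The 10 highest spanned from 2.11 to 351 kb. SLCO5A1, a transporter gene, had 5.46 FPKM in whole cells and 392.9 FPKM in the mitoplast library, FOXC2, a transcription factor gene, had 4.13 and 282.2 FPKM, and NFAT5, the transcription factor of the osmotic stress response, had 4.65 and 135.2 FPKM. FZD2, a Wnt receptor, was at 22.6 and 341.6 FPKM (4.38), but at a relative ratio of −4.02 when each library's own transcript names were used. TRAK2, an adaptor for the transport of mitochondria along microtubules, stood at 3.15 and 44.2 FPKM, and HIGD1A, a small protein of the inner mitochondrial membrane, at 11.02 and 85.6 FPKM. PAFAH1B3, PCNP, MAPKAP1 and MED12L completed the 10, with relative ratios of 3.33 to 3.803. Whole-cell values of all 10 were 22.6 FPKM or less.

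Noncoding genes were mostly below the median coding gene: 831 of 1479 were lower, which is 56.2%, and 450 were higher, which is 30.4%, with a median of −1.68. The mitoplast library listed 540 of them at 0, and over genes above 0 in both libraries the median was −0.27. The classes that stood lowest were of short RNAs, small RNAs of the nucleus among them. Small nucleolar RNAs, which guide the modification of rRNA, had a median of −4.32 with 71 of 77 lower, 67 of the 77 being listed at 0 in mitoplasts. Spliceosomal and related small nuclear RNAs had −3.56 with 57 of 58 lower and 52 listed at 0 in mitoplasts. Cajal body RNAs had −5.53 with 10 of 10 lower and 8 listed at 0. Over genes above 0 in both libraries the medians were −2.09 for small nucleolar, −2.24 for small nuclear and −5.21 for Cajal body RNAs. MicroRNA precursors had −3.61 with 8 of 9 listed at 0 in mitoplasts, and the mitochondrial tRNAs had −4.67. The part of transcript length in these low values was not tested. SCARNA7, a Cajal body RNA, had 1396 FPKM in whole cells and 2.02 FPKM in the mitoplast library, and SNORA73B, a nucleolar RNA, had 6540 and 44.7 FPKM. RNU5A-1 (U5) was at 9467 and 307.2 FPKM and RNU4-2 (U4) at 6360 and 1014 FPKM, while RNU11, of the minor spliceosome, was near the median gene at 6479 and 4047 FPKM (−0.16). When each library's own transcript names were used, RNU5A-1 turned to 8.80.

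RMRP and RPPH1, the RNA subunits of RNase MRP and RNase P, have been discussed as RNAs imported into mitochondria. RMRP had 29480.0 FPKM in whole cells and 1178 FPKM in mitoplasts, a relative ratio of −4.12, and RPPH1 had 12641 and 978.1 FPKM, a relative ratio of −3.17. Both were thus below the median coding gene by more than 8-fold. Other short transcripts of RNA polymerase III in the list went both ways: the vault RNA VTRNA1-1 was at 485.5 and 2250 FPKM (2.73), the Y RNAs RNY1 and RNY3 at 642.2 and 1264 FPKM (1.50) and at 150 and 558.2 FPKM (2.41), and RNY4, VTRNA2-1 and VTRNA1-3 were listed at 0 in mitoplasts. The 4 kept genes typed as nuclear-encoded rRNA, all of the 5S family, were higher with a median of 3.70; RNA5S9, a copy of the 5S rRNA gene, stood at 3312 and 16990 FPKM (2.88). Of 57 rRNA pseudogenes, whose reads cannot be told apart from those of their parent rRNA genes, 46 were higher (median 3.41). Abundant short RNAs thus fell on both sides of the median gene, and transcripts of this length are measured poorly by FPKM.

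**Figure D4:**
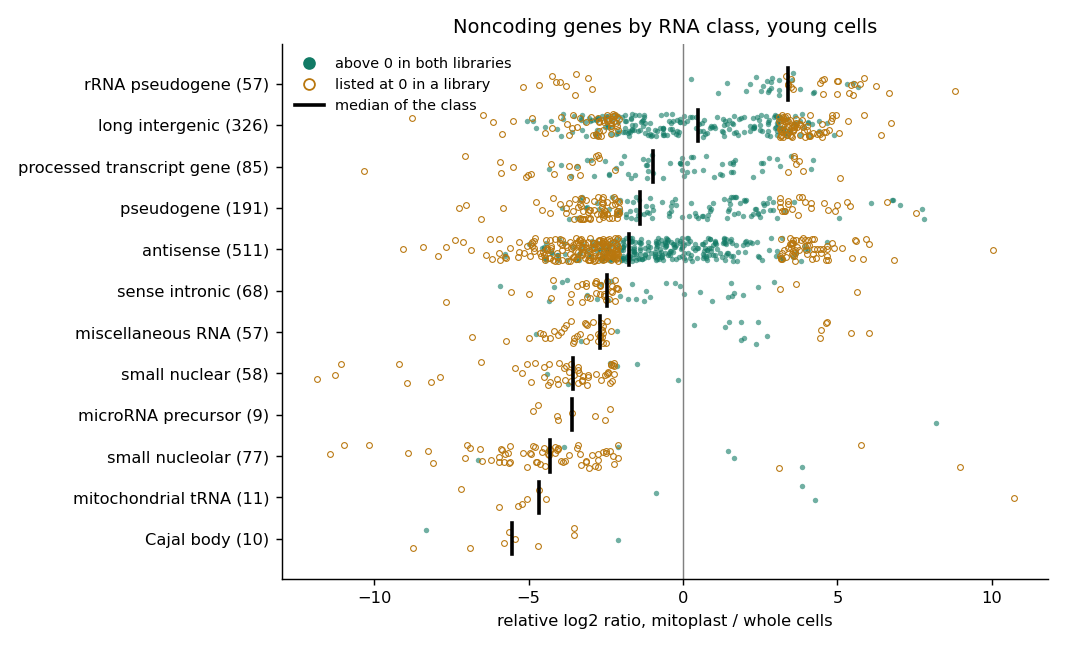
Relative log2 ratio (x axis) of noncoding genes by RNA class, 1 point a gene, for classes with at least 9 genes kept (number in brackets). Open points are listed at 0 in a library and black bars mark the class medians. Small nucleolar, small nuclear and Cajal body RNAs lie on the left, most of them as open points, and rRNA pseudogenes on the right.

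The lists of nuclear and of cytoplasmic long noncoding RNAs had medians of different sign. Of 8 nuclear long noncoding RNAs kept, 7 were lower and 1 higher, with a median of −1.87. MALAT1, a resident of nuclear speckles, had 1265 FPKM in whole cells and 89.05 FPKM in mitoplasts (−3.29), with 1.87% of its value in transcripts of 600 nt or more; over those transcripts alone its relative ratio was 5.23. NEAT1, the scaffold of paraspeckles, was at 12.6 and 2.67 FPKM (−1.37). PVT1 was at 2103 and 65.8 FPKM (−4.45) and JPX at 299.4 and 56.7 FPKM (−1.86), both wholly in transcripts under 600 nt. Among 17 cytoplasmic ones, the median was 0.32, 6 being higher and 2 lower: CYTOR was at 393.3 and 164 FPKM (−0.73), GAS5, a host gene of small nucleolar RNAs, at 246.4 and 108.7 FPKM (−0.65) and SNHG29 at 146.8 and 160.5 FPKM (0.65). Of all 326 long intergenic genes, 152 were higher and 128 lower, with 73 listed at 0 in whole cells and 48 in mitoplasts. Their median of 0.48 turned to −0.19 over genes above 0 in both libraries and ranged from −1.79 to 1.32 over the alternatives, so no direction is given for them. Antisense genes had a median of −1.76, near the −1.68 of all noncoding genes. Of the 511, 296 were lower, a share near the 56.2% of all noncoding genes, and 180 were listed at 0 in mitoplasts. The antisense median was −0.71 over genes above 0 in both and ranged from −2.51 to −0.296 over the alternatives. Sense intronic genes had −2.45 (35 of 68 listed at 0 in mitoplasts), which was −1.22 over genes above 0 in both and ranged from −5.28 to −0.53. Without a known strand setting both of these classes can carry reads of the genes they overlap.

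The genes with the most extreme noncoding values were named by the rule used for coding genes, at 200 nt or more. MEG8, an imprinted RNA, had 1000 FPKM in whole cells and 23.3 FPKM in mitoplasts, CARMN had 175.4 and 2.70 FPKM and RBMS3-AS2, antisense to the low coding gene RBMS3, had 93.55 and 0.225 FPKM. At the other end were, among others, pseudogenes of short coding genes: RPL36AP33 stood at 1.21 and 341.6 FPKM, PFN1P3 at 0.417 and 207.9 FPKM, BANF1P1 at 1.62 and 234 FPKM and RPL36AP44 at 4.70 and 269.4 FPKM. Reads of such copies cannot be told apart reliably from those of their parent genes RPL36A, PFN1 and BANF1, so these values are uncertain.

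Noncoding transcripts of coding genes spread widely, with 1103 of 3169 higher (34.8%) and 1293 lower (40.8%) and a median of −0.23. Retained-intron transcripts stood highest with a median of 1.00 (397 higher and 246 lower of 794), which fell to 0.20 over genes above 0 in both libraries. Transcripts typed for nonsense-mediated decay had −0.81. Where the same gene had both kinds of transcript, the kinds shared the order of destinations: over 61 secretory genes the medians were −0.83 for coding and −0.52 for noncoding transcripts, over 91 mitochondrial genes 0.71 and 0.88, over 93 cytosolic genes 0.83 and 0.98, and over 103 nuclear genes 0.02 and −0.46. Both kinds share reads of common exons.

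The senescent pair, 2 further libraries, gave another set of values for the same lists. Its median nuclear-encoded coding gene stood at −2.42, further below its whole-cell level than in the young pair. The mitochondrially encoded RNAs limit how far the senescent values can be read: of the 13 mRNAs, 2 reached 5 FPKM in a senescent library, MT-CYB with 14663 FPKM in whole cells and 29903 FPKM in mitoplasts (3.44) and MT-ND1 with 13185 FPKM and a listed 0, and of the rRNAs MT-RNR2 alone, listed at 0 in whole cells and at 36308 FPKM in mitoplasts. The young result that all 13 were higher was thus not seen in that pair. Cytosolic genes had a median of 0.93 in the senescent pair, beside 0.90 in the young pair, and cytosolic ribosomal proteins 1.86 beside 1.02. Secretory genes had 0.29 beside −1.05, and each of the 6 secretory lists was between 0.00 and 0.79. Mitochondrial genes had 0.01 beside 0.81, with complexes II to V at 0.64, complex I at 0.71 and import factors at 0.87, but mitochondrial ribosomal proteins at −0.29. Replication-dependent histones had 3.82 beside 0.60, and DNA replication and mitosis genes 3.71 beside 0.34, over the 14 and 12 genes kept there. The young medians are over 33 and 44 genes, so the sets of genes differ. A gene low in senescent whole cells was kept only where its mitoplast value reached 5 FPKM. These senescent medians thus depend on that limit and are no measure of the whole lists. Across the 4921 genes kept in both pairs, Pearson's r between the 2 relative ratios was 0.35 and Spearman's rho 0.32, over genes that are not independent. The difference between the pairs was not tested, with 1 library a group.

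**Figure D5:**
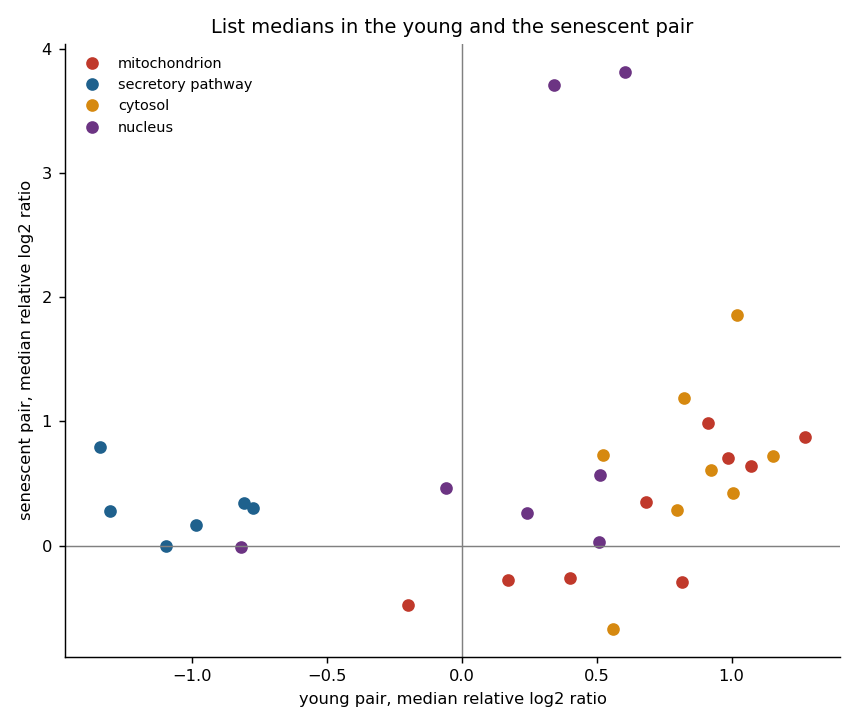
Median relative log2 ratio of each destination list in the young pair (x axis) and the senescent pair (y axis), 1 point a list with at least 10 genes kept in both, each pair centred on its own median nuclear-encoded coding gene. The 6 secretory lists lie between −1.34 and −0.77 on the x axis and between 0.00 and 0.79 on the y axis; the 2 nuclear lists near 3.7 and 3.8 are DNA replication and histone genes, of which 12 and 14 were kept in the senescent pair.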

How the data were processed

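The labels name a TruSeq RNA kit and give no strand setting. The authors deposited FPKM per transcript of a merged set of 393483 entries, per the file headers; hg19, Cuffdiff, Cufflinks 2.2.1 and TopHat2 2.0.14 are listed, without roles, in the submitters' processing notes. Counts and depth are unknown, and so is the precision of each value. The 185591 entries with an Ensembl name in any library were summed to genes, coding and noncoding transcripts apart, with types, lengths, spans and reading frames from GENCODE 29 (GRCh38), which matched 93.0% of these transcripts; unmatched ones held 12.4% and 11.5% of the Ensembl-named FPKM. Ratios used a pseudocount of 1 FPKM. Genes in a locus with several genes share assembled transcripts, which were given to none.

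Members, the 42 lists and the rules were chosen with earlier results of these data known. Named were the 3 members of each list with the highest mean FPKM above 0 in both libraries, from which examples were taken, the mitochondrial mRNAs and rRNAs, the 10 most extreme coding and 8 most extreme noncoding genes at 20 FPKM or more, and RMRP, RPPH1, MALAT1 and NEAT1; MT-TC, MT-TE, RNA5S9, RNY1 and RNY3 and the list members at 0 were chosen after their values were seen. RefSeq proteins were planned for the protein features and translated GENCODE frames were used instead. Genomic span and exon number were added after the data were seen. Some list genes, such as RN7SK, are not analysed here. A member that the naming rule selects and a sequence are not reported here. The ratio calculation recovered shifts set in simulated data that held no values of 0 and used almost no pseudocount. That check does not bear on the values of 0 or the pseudocount of 1 FPKM here. Python 3.11.15, pandas 2.3.3, numpy 2.4.6 and matplotlib 3.10.9 were used.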

Additional observations from a re-analysis of the deposited data

Results flagged for a closer look

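In 8 of the destination lists with 10 or more genes kept in both pairs, the median relative log2 ratio of mitoplasts over whole cells differed by 1 or more between the young and the senescent pair and lay on opposite sides of 0 or, for secreted proteases, inhibitors and cytokines, reached it at 0.00. Larger differences without a change of sign, those of DNA replication and mitosis genes and of histones, are given above, and so are the mitochondrially encoded RNAs. With 1 library a group these differences were not tested, and each pair is centred on its own median gene. As senescent minus young, collagens differed by 2.13 (−1.34 young, 0.79 senescent, 15 genes in each), matrix glycoproteins and proteoglycans by 1.59, ER proteins by 1.15, integrins, receptors and adhesion proteins by 1.15, secreted proteases, inhibitors and cytokines by 1.10 and Golgi and lysosome proteins by 1.07. Mitochondrial ribosomal proteins differed by −1.11 (0.82 over 66 genes and −0.29 over 59) and cytosolic tRNA synthetases by −1.23 (0.56 over 21 genes and −0.67 over 17).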

How the results depend on the processing

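No paired analysis was possible because each group held 1 library and the labels give no replicate numbers; for the same reason no replicate could be left out. With equal sums over nuclear-encoded genes the medians became 0.094 for mitochondrial, −1.77 for secretory, −0.48 for nuclear and 0.18 for cytosolic genes and 1.69 for mitochondrial mRNAs, a shift that holds for all genes alike. Higher coding genes numbered 2520 at 1 FPKM or more, 821 at 20 FPKM or more, 1003 without centring and 858 with equal sums, against 1650; lower ones numbered 969 at 20 FPKM or more and 3209 with no filter, against 1924, because the number of genes tested or the centre differs. Over genes above 0 in both libraries the polymerase III list turned to 1.44, mitochondrial tRNAs to 3.79 and pseudogenes to 0.49, and pseudogenes to 1.50 at 20 FPKM or more. Over transcripts of 600 nt or more ALDOA turned to −5.43, IVD to −3.53, MALAT1 to 5.23, MCU to 3.19 and SMAD3 to 4.14. With each library's own transcript names FZD2 turned to −4.02 and RNU5A-1 to 8.80. LMNA turned to 1.38 with all annotated transcripts and to 0.32 with assembled transcripts added, and SLC25A6 to −1.37 with the latter. The cause of these single-gene changes was not tested. Depth is unknown, so no limit of detection can be given.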
